A study of Mus musculus with 2 samples.

Results

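The genes described here are 10 genes of the red cell and platelet lineages, out of 21517 protein-coding genes with a position on the mouse autosomes and X. The 6 erythroid genes are Tfrc, Bpgm, Klf1, Hemgn, Ank1 and Slc4a1, and the 4 platelet genes are Gp1ba, Gp9, Itga2b and Vwf. They were listed with the loop calls of these same lists known, so the members were chosen by measured values and their loop counts are descriptions without a test. A loop belonged to a gene when an anchor lay on the gene or at most 25 kb from it, or when the loop spanned the gene. By that rule 7 of the 10 genes had at least 1 loop and 3, Klf1, Gp9 and Ank1, had none, while 58.7% of all protein-coding genes had at least 1.

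Hi-C ligates DNA ends that touch in fixed nuclei, and a loop is a pair of bins, its anchors, that a caller found in contact more often than their surroundings. The cells were HPC5, a bone marrow-derived mouse progenitor line whose labelled genotype is Etv6+/+, with 2 replicates, no mutant and no treated sample. Nothing in the labels says whether the replicates were separate cultures, so their spread may be technical. The labels name 1 line, and Hi-C gives no RNA levels, so the cell type could not be checked against markers and nothing here says whether a gene was active. In the larger of the authors' 2 loop lists, called the medium list, replicate 1 had 1276 loops and replicate 2 had 5729. In the high list they had 202 and 3354. Every medium loop near the 10 genes with 5 or 10 kb anchors was also in the high list. None with 25 kb anchors was, so here the high list went with anchor width. The domain lists held 3 and 339 domains. No contact totals were used, so the depth is unknown and a missing loop does not show a missing contact.

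Red cell precursors and megakaryocytes, the platelet-forming cells, arise from a common bone marrow progenitor under GATA-family transcription factors and their partners. Red cell precursors take up iron through the transferrin receptor, assemble haemoglobin and build a membrane skeleton held to the lipid layer by an ankyrin and an anion exchanger. Platelets stick to damaged vessels when the glycoprotein Ib-IX-V complex binds von Willebrand factor, and they aggregate when integrin alpha IIb beta 3 binds fibrinogen. Loops of the kind called by Hi-C often form where cohesin stops at CTCF sites, and some join gene starts to distant enhancers.

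RefSeq starts and promoter sequences (GRCm38.p6, the assembly that mm10 names) were held for 7 of the 10 genes, in 8 entries, since Tfrc had 2. Only the starts of Tfrc and Gp1ba lay in an anchor, in replicate 1. The 250 bases before these starts are shown because they are the promoters that loops touched, and those of Hemgn and Klf1 because they held GATA letters without an anchor at the start. Of the 2 Tfrc entries, only that of the first start is printed. They lie at chr16:32608646-32608895 (plus strand), chr11:70638872-70639121 (plus strand), chr4:46404184-46404433 (minus strand) and chr8:84901732-84901981 (plus strand). Capitals mark matches, on either strand, to a GATA motif (AGATAA or TGATAA), a KLF box (CCNCNCCC) or a CTCF core (CNAGNNGGC), and no printed promoter held the ETS letters CCGGAAG.
Tfrc: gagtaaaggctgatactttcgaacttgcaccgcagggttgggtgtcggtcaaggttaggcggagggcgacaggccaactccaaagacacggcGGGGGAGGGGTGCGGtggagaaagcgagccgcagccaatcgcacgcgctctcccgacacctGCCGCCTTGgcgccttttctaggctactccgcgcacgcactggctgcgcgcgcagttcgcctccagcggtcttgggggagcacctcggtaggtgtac
Gp1ba: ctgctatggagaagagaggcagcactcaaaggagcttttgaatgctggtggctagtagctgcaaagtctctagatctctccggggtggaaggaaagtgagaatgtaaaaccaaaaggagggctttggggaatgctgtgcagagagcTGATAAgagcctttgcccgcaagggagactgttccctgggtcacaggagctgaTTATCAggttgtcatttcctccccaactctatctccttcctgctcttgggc
Hemgn: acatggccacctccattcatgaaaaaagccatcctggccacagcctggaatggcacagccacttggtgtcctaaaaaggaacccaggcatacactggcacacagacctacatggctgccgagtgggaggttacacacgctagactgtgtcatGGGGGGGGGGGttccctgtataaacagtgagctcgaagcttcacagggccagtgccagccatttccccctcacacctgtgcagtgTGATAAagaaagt
Klf1: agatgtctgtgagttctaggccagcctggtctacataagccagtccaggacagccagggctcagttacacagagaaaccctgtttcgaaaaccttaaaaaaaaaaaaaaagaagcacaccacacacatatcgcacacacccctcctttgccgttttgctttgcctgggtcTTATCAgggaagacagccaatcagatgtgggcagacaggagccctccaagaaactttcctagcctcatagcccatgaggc

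The GATA motif letters AGATAA or TGATAA stood in the promoters of Gp1ba, Hemgn and Klf1. They stood in none of the other 4 genes with an entry, while 16.5% of 32536 distinct promoter windows of the same length held them. In Gp1ba they occurred 104 and 51 bases before the start, in Hemgn 13 bases before it, and in Klf1 80 bases before it. CTCF core letters stood in the promoters of Tfrc, Bpgm and Gp9, against 17.1% of all windows. In the Bpgm promoter they overlapped a KLF box. KLF box letters, held by 46.2% of all windows, stood in the promoters of Tfrc, Bpgm, Hemgn, Gp9 and Itga2b. Those of Hemgn were 4 overlapping matches in a run of G. The ETS letters CCGGAAG, held by 6.95% of all windows, stood in none of the 7 genes' promoters. A match describes letters and not a bound site. A missing match covers only the exact letters searched and does not show that a site was missing.

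Tfrc, which encodes the transferrin receptor that brings iron into red cell precursors, had an anchor on the gene in both replicates, alone among the 10 genes. It lies at 32608896 to 32632794 on chromosome 16 and is transcribed in the plus direction. Both its starts fell in the replicate 1 anchor 32600001 to 32624999, which was linked over 100 kb to 32500001 to 32524999, an anchor with an end of Zdhhc19, a gene of the DHHC palmitoyltransferase family. Its replicate 2 partner, also of 100 kb, linked 32610001 to 32619999 with 32510001 to 32519999. Its right anchor lay wholly inside Tfrc, 1105 bases from the first start and 879 bases from the second, and its left anchor held no annotated gene. The narrower replicate 2 anchor thus lay inside the gene body and did not reach either start.

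The value tagged n, a whole number per loop that the files do not define, was 57 in replicate 1 and 52 in replicate 2 for this loop. Because n grows with anchor width, it was ranked among loops of the same replicate and width. The rank makes no allowance for span, so loops of unlike span are not compared on equal terms. These ranks were percentiles of 98.2 in replicate 1 and 97.7 in replicate 2, and no other loop of the 10 genes ranked as high in its replicate. A further Tfrc loop was listed in replicate 2 alone. It spanned 50 kb and joined the right end of Tfrc, at 32630001 to 32639999, to 32680001 to 32689999 at the end of Tnk2, a tyrosine kinase gene. Its n was 46, at percentile 93.3. Both replicate 2 loops of Tfrc, with 10 kb anchors, were also in the high list, and that of replicate 1, with 25 kb anchors, was not.

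**Figure D1:**
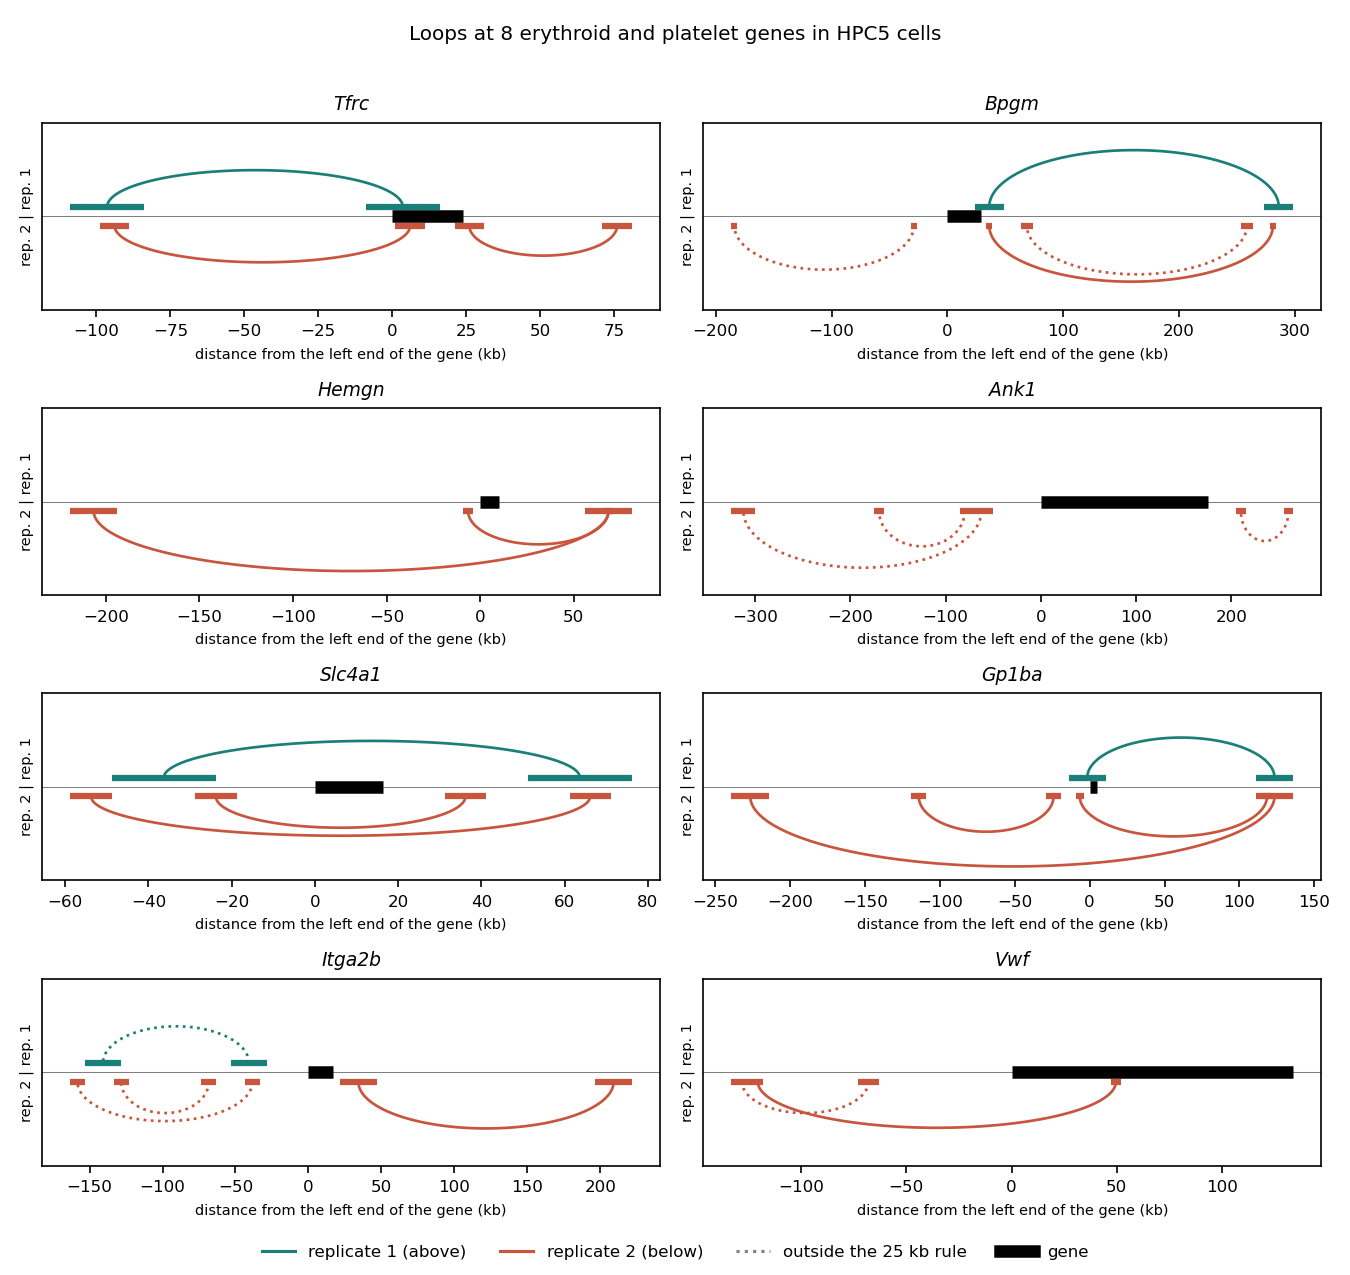
Loops near 8 of the 10 genes, with distance in kb from the left end of each gene on the horizontal axis, replicate 1 arcs above and replicate 2 arcs below, thick coloured bars for anchors and a black bar for the gene. Arc height rises with span and has no unit. Dotted loops have an anchor within 75 kb but fall outside the 25 kb rule. Tfrc, Bpgm, Slc4a1 and Gp1ba have matching solid arcs in both replicates, and Ank1 has dotted arcs only.

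Bpgm encodes the mutase that makes the red cell phosphate ester which lowers the oxygen affinity of haemoglobin. The gene runs from 34476356 to 34505136 on chromosome 6, in the plus direction. Its right end fell in the replicate 1 anchor 34500001 to 34524999, which was linked over 250 kb to 34750001 to 34774999 inside Cald1, the caldesmon gene. The replicate 2 partner, of 245 kb, linked 34510001 to 34514999 with 34755001 to 34759999. That left anchor lay 4.87 kb beyond the gene and held the lncRNA gene Gm52898 in place of Bpgm. The start of Bpgm was 23.6 kb from the nearest anchor in replicate 1 and 26.4 kb in replicate 2, so the repeated contact was at or past the downstream end. Its n was 32 in replicate 1, at percentile 53.1, and 17 in replicate 2, at percentile 33.2.

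Slc4a1 encodes the anion exchanger of the red cell membrane and lies at 102348820 to 102365281 on chromosome 11. No anchor touched it, but it sat under loops in both replicates. In replicate 1 a loop of 100 kb ran from 102300001 to 102324999, at Ubtf, to 102400001 to 102424999, at Rundc3a and Slc25a39. Ubtf encodes a ribosomal RNA gene transcription factor, and Slc25a39 a mitochondrial carrier. The replicate 2 partner of this loop covered 120 kb, with anchors at 102290001 to 102299999 and 102410001 to 102419999. Its left anchor held ends of Atxn7l3 and Gm33851 in place of Ubtf, and its right anchor held no annotated gene. A nested loop of 60 kb, listed in replicate 2 alone, joined 102320001 to 102329999 to 102380001 to 102389999. The nearest anchor was 23.8 kb away in replicate 1 and 14.7 kb away in replicate 2. The values of n were 38 in replicate 1, at percentile 74.9, and 34 and 36 in replicate 2, at percentiles 66.1 and 73.5.

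Hemgn, a nuclear protein gene of blood progenitors and red cell precursors, had loops in replicate 2 only. It lies at 46393989 to 46404183 on chromosome 4, in the minus direction. A loop of 75 kb joined 46385001 to 46389999, inside its neighbour Trmo and 3.99 kb from Hemgn, to 46460001 to 46464999 inside Anp32b, so that Hemgn lay under it. A loop of 275 kb joined Xpa, a DNA repair gene, to the same Anp32b and spanned Hemgn as well. Their n values were 17 and 28, at percentiles 33.2 and 5.37. In replicate 1 the nearest anchor was 270.8 kb away.

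Klf1, which encodes the erythroid transcription factor that activates globin and many other red cell genes, had no loop by the rule in either replicate. The gene lies at 84901982 to 84905291 on chromosome 8. Its nearest anchor was 77.0 kb away in replicate 1, at 84800001 to 84824999, and 82.0 kb away in replicate 2, at 84810001 to 84819999. Both belonged to a loop of 100 kb found in both replicates, whose far anchor in replicate 1 held ends of Nfix and of Lyl1, which encodes a transcription factor of blood stem cells. Klf1 itself lay outside that loop.

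Ank1, the erythrocyte ankyrin gene that fixes the spectrin skeleton to the membrane, spans 22974836 to 23150501 on chromosome 8. At 175.7 kb it is the longest of the 10 genes, and no anchor lay on it. In replicate 2 loops ended on both sides of it, 29.5 kb to the right at Gpat4 and 49.8 kb to the left inside Kat6a. In replicate 1 the nearest anchor was 399.8 kb away.

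Gp1ba encodes the platelet glycoprotein chain that binds von Willebrand factor and lies at 70639102 to 70643986 on chromosome 11. The whole gene fell in the replicate 1 anchor 70625001 to 70649999, which was linked over 125 kb to 70750001 to 70774999 at Zfp3. The same left anchor held ends of Slc25a11 and Rnf167, so the contact could not be assigned to Gp1ba. The replicate 2 partner, of the same span, linked 70630001 to 70634999 with 70755001 to 70759999. This narrower left anchor ended 4.12 kb before the Gp1ba start, inside the lncRNA gene Gm12315, and the right one lay at the lncRNA gene Gm12320. The n values were 38 in replicate 1, at percentile 74.9, and 18 in replicate 2, at percentile 42.9.

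Replicate 2 alone listed a pair of further loops at Gp1ba. One, of 90 kb, ended 19.1 kb from the gene at 70610001 to 70619999, an anchor with ends of Mink1, Chrne and 4930544D05Rik, and began at Gltpd2 and Psmb6. The other, of 350 kb, joined Pelp1 to Zfp3 over the gene. Their n values were 31 and 43, at percentiles 56.1 and 24.9.

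Itga2b encodes the alpha IIb chain of the platelet fibrinogen receptor and lies at 102453297 to 102469883 on chromosome 11, in the minus direction, 88.0 kb from Slc4a1. Its only loop by the rule was in replicate 2, where 102475001 to 102499999, at the end of Gpatch8, was joined over 175 kb to 102650001 to 102674999, at the end of Meioc. The left anchor lay 5.12 kb upstream of the Itga2b start. Its n was 64, at percentile 55.0. The loop over Slc4a1 ended 28.3 kb from Itga2b in replicate 1 and 33.3 kb from it in replicate 2, just outside the limit.

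Vwf, the gene of the adhesive ligand that megakaryocytes and endothelial cells store, spans 125552948 to 125686679 on chromosome 6. Its loop, listed in replicate 2 alone, covered 170 kb and linked 125430001 to 125434999, in the lncRNA gene Gm32673, with 125600001 to 125604999 inside Vwf. That anchor was 47.1 kb from the left end of the gene and 81.7 kb from the right end, and no exon table was used to place it. The n of 12, at percentile 1.17, was the lowest rank of any loop of the 10 genes, and its qBL, another value the files do not define, was 0.0218. For comparison, the replicate 2 Tfrc loops, on 10 kb anchors against 5 kb for Vwf, had qBL of 3.96e-07 and 2.31e-07. In replicate 1 the nearest anchor was 1173 kb away.

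Gp9, which encodes a partner chain of Gp1ba in the same complex, had no loop by the rule. It lies at 87776131 to 87779786 on chromosome 6. The nearest anchor was 101.1 kb away in both replicates and was the same one, 87650001 to 87674999 at Aplf. It belonged to a loop of 100 kb with identical anchors in both lists, with n of 40 in replicate 1, at percentile 79.9, and 124 in replicate 2, at percentile 97.1.

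**Figure D2:**
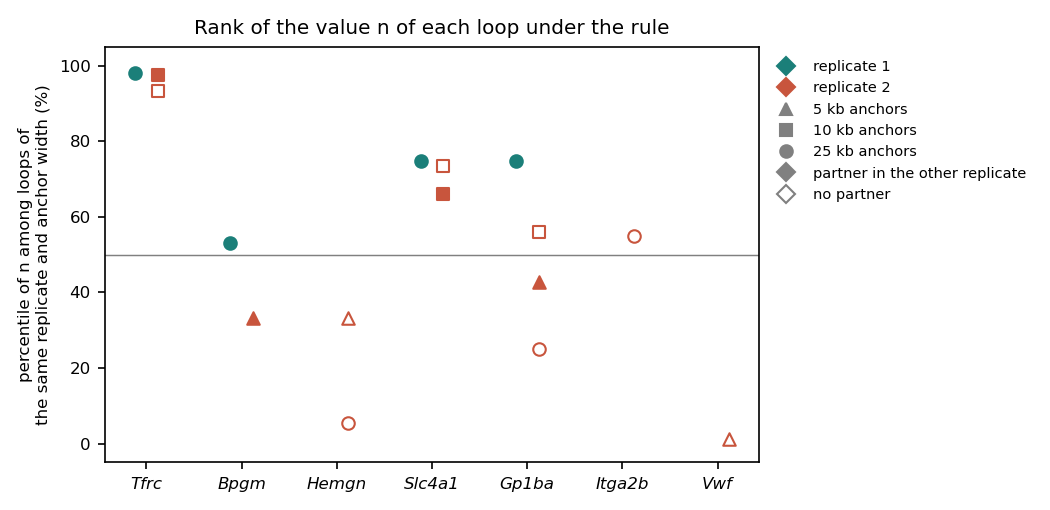
Percentile of n (vertical axis, in %) of each loop under the rule among all loops of the same replicate and anchor width, by gene. Colour gives the replicate, shape the anchor width, and filled symbols have a partner loop in the other replicate. The percentile makes no allowance for the span of the loop. The Tfrc loops sit between 93.3 and 98.2, and the Vwf loop sits at 1.17.

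Together the 10 genes had 16 loops by the rule, 4 in replicate 1 and 12 in replicate 2, with spans of 50 to 350 kb. Loops of the 2 replicates were partners when their left anchors and their right anchors were each centred at most 20 kb apart. All 4 replicate 1 loops had a partner, against 80.6% of all 1276 loops of that replicate, and 4 of the 12 replicate 2 loops did, against 18.2% of all 5729. The 4 partner pairs were those of Tfrc, Bpgm, Slc4a1 and Gp1ba. In no pair were the anchors identical, since replicate 1 gave 25 kb anchors in all 4 and replicate 2 gave 5 or 10 kb anchors. The median span was 112.5 kb in replicate 1 and 122.5 kb in replicate 2, against 150 kb over all loops of each replicate. None of the 4 loops of replicate 1 and 9 of the 12 of replicate 2 were also in the high list, which held 15.8% of all replicate 1 loops and 58.5% of all replicate 2 loops. Of these 16 loops, those in the high list had 5 or 10 kb anchors, and those outside it had 25 kb anchors. The counts therefore follow anchor width and do not rank the loops by strength.

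An end of the gene lay in an anchor for 3 of the 10 genes, Tfrc, Bpgm and Gp1ba, with 22.5% of all protein-coding genes as the background. By replicate it was 3 genes in replicate 1, against 6.67% of all genes, and 1 gene, Tfrc, in replicate 2, against 19.8%. All 3 had an end in an anchor of a loop found in both replicates, against 5.82% of all genes. In each of these pairs the end lay in the replicate 1 anchor only. In the high list it was Tfrc alone, against 9.52%. An anchor touched the gene body of 4 genes, these 3 and Vwf, against 30.0%. An anchor lay within 25 kb of 7 genes, against 49.9%, and 4 of them had it in both replicates. Per replicate these were 4 genes in replicate 1, against 16.5%, and 7 in replicate 2, against 48.8%. Through a loop with a partner it was 4 genes, against 13.7%. Among these, Slc4a1 counted through its replicate 1 loop alone, since no anchor of the replicate 2 partner came closer than 44.7 kb. In replicate 2 the anchor within 25 kb of Slc4a1 belonged to the 60 kb loop, which had no partner. Since the genes were selected with these loops known, no difference from the background is read from these counts.

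The limit of 25 kb separated distances that were close together. Just inside it were the replicate 1 loop of Slc4a1, at 23.8 kb, and a replicate 2 loop of Gp1ba, at 19.1 kb. Just outside were a replicate 2 loop left of Bpgm, at 26.4 kb, the replicate 1 loop near Itga2b, at 28.3 kb, and the replicate 2 loop right of Ank1, at 29.5 kb.

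A gene counted as spanned when it lay whole between the outer edges of a loop's anchors, inside an anchor included. Loops spanned Gp1ba, Slc4a1 and Hemgn, 3 of the 10 genes, against 35.0% of all genes. In replicate 1 they spanned Gp1ba and Slc4a1, against 9.28%, and in replicate 2 all 3, against 34.0%. No domain of either replicate touched any of the 10 genes, 0 of 10, against 5.51% of all protein-coding genes. The nearest replicate 2 domain was that left of Tfrc, 168.9 kb away at 32370001 to 32440000. Next were a domain 334.1 kb from Gp1ba and a domain 335.2 kb from Gp9. The other 7 genes had none within 1000 kb, the nearest being 1705 kb from Klf1.

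Distances to the nearest anchor give every gene a value in each replicate. Over the 10 genes the median distance was 52.6 kb in replicate 1 and 4.99 kb in replicate 2, against 387.3 and 27.1 kb over all genes. In replicate 1 the order was Tfrc, Bpgm and Gp1ba at 0 kb, then Slc4a1, Itga2b, Klf1, Gp9, Hemgn, Ank1 and Vwf. In replicate 2 it was Tfrc and Vwf at 0 kb, then Hemgn, Gp1ba, Bpgm, Itga2b, Slc4a1, Ank1, Klf1 and Gp9. Hemgn, Gp1ba, Bpgm and Itga2b, between 3.99 and 5.12 kb, differed by less than 1 bin. Vwf moved most between replicates, being the farthest gene of replicate 1 and holding an anchor in replicate 2, and Klf1 and Gp9 kept nearly the same distance. Within 500 kb of their midpoints the genes had a median of 21 other coding genes, against 15 over all genes. The median number of loops there was 1 in replicate 1, the same as over all genes, and 6 in replicate 2, against 4 over all genes. How far these numbers bear on the distances was not tested.

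**Figure D3:**
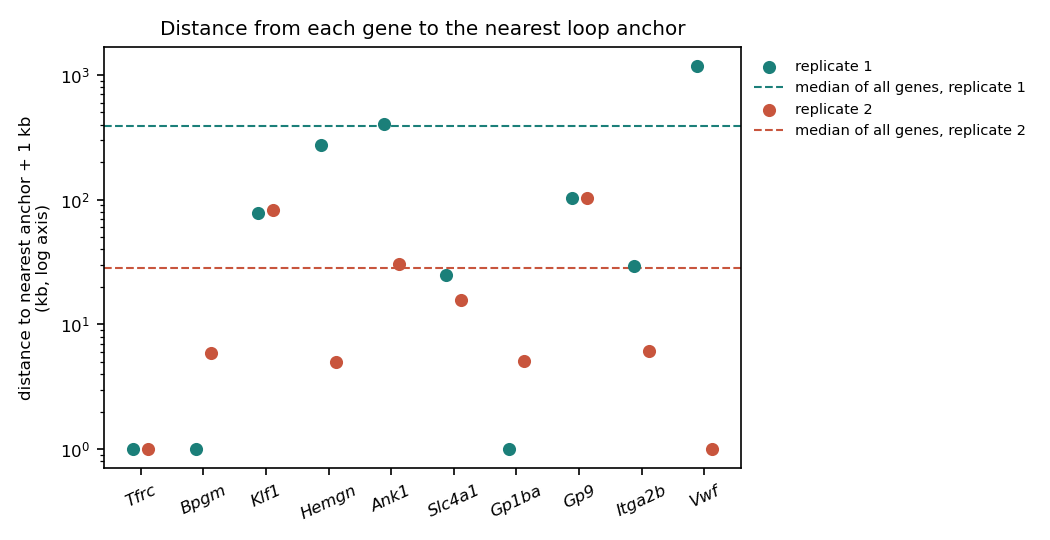
Distance from each of the 10 genes to the nearest loop anchor plus 1 kb (vertical log axis, kb) in replicates 1 and 2, with dashed lines at the median over all 21517 protein-coding genes. In replicate 1 8 genes and in replicate 2 7 genes lie below their line, and the replicates differ most for Vwf.

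The other genes of these lineages were taken from a list of 113 entries in 7 groups, of which 112 matched a protein-coding gene and 102 were not among the 10. An end lay in an anchor for 30 of the 102, or 29.4% (95% Wilson interval 21.4 to 38.9%), against 22.5% of all genes. It was 10 genes in replicate 1 (9.80%, against 6.67%), 26 in replicate 2 (25.5%, against 19.8%) and 10 at loops found in both (9.80%, 5.41 to 17.1%, against 5.82%). An anchor lay within 25 kb of 67 genes (65.7%, 56.1 to 74.2%), against 49.9% of all genes. A loop spanned 55 genes (53.9%, 44.3 to 63.3%), against 35.0%. Counted per list, with shared genes in both, it was 19 genes in replicate 1 (18.6%, against 9.28%) and 54 in replicate 2 (52.9%, against 34.0%). This list too was chosen with earlier results of these data known, so its shares are descriptions without a test. Genes in a cluster share anchors and are not independent, and the intervals cover counting error only.

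**Figure D4:**
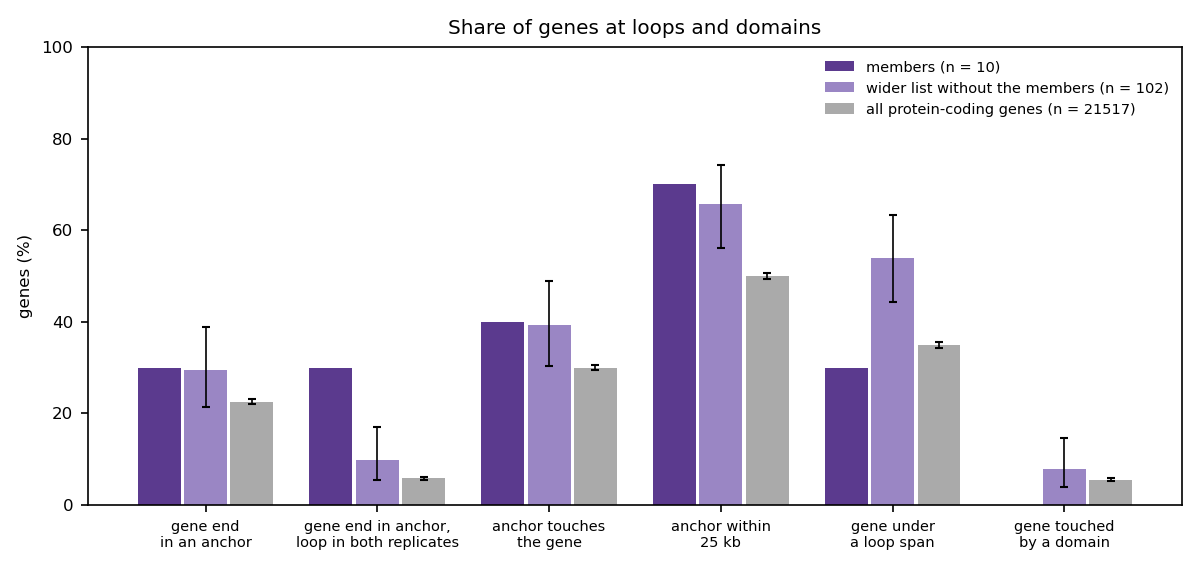
Share of genes (vertical axis, %) at loops and domains under 6 rules, for the 10 genes, the 102 other lineage genes and all 21517 protein-coding genes, with 95% Wilson intervals on the 102 genes and on all genes. Both gene lists were chosen with results of these data known, so no test is made, and the intervals cover counting error only. For the 102 genes the bar for a loop span stands at 53.9%, against 35.0% for all genes.

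By group, where the share over all genes was 22.5%, an end lay in an anchor for 3 of 11 erythroid transcription factor genes, 6 of 18 red cell membrane genes, 3 of 18 genes of iron, haem and glycolysis, and 4 of 11 erythroid receptor and globin genes. It did for 6 of 20 platelet receptor genes, 3 of 11 platelet granule and adhesion genes, and 5 of 13 megakaryocyte regulator and cytoskeleton genes. With so few genes a group, no group is set apart from all genes by these counts. In the group of iron, haem and glycolysis genes, to which Tfrc and Bpgm belong, none of the other 18 had an end in an anchor of a loop found in both replicates, where the share over all genes was 5.82%. In a group of this size a count of 0 does not set it apart. The 3 with an end in an anchor, Cpox and Urod, which encode haem synthesis enzymes, and Hk1, a hexokinase gene, had it in replicate 2 only.

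Genes with an end in an anchor of a loop found in both replicates numbered 10. Clec1b, a platelet activating receptor gene, shared a replicate 1 anchor with Clec12b that was joined over 100 kb to Olr1 on chromosome 6. The replicate 2 partner, of 80 kb, missed Clec1b, its left anchor lying 2.30 kb from the gene. Epb41, which encodes a protein of the red cell membrane skeleton, had its right end joined over 100 kb to a place inside the gene, with anchors at 132075001 to 132099999 in replicate 1 and 132070001 to 132079999 in replicate 2. Of the stem and erythroid factor genes, Lyl1 had the 100 kb loop described at Klf1, with the gene end in the replicate 1 anchor only. Lmo2 had a loop of 125 kb in replicate 1 and of 110 kb in replicate 2. Itga2, the collagen receptor chain gene, had a loop of 130 kb and Ptger3, a prostaglandin receptor gene, a loop of 150 kb, each with the gene end in a replicate 1 anchor only. Jak2, the kinase gene that acts below the erythropoietin and thrombopoietin receptors, had a loop of 190 kb with its end in a replicate 2 anchor.

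Thbs1, the thrombospondin gene of platelet granules, was joined over 200 kb in both replicates, with n of 48 on 25 kb anchors in replicate 1, at percentile 94.9, and 26 on 5 kb anchors in replicate 2, at percentile 88.7. Fli1, which encodes an ETS-family factor of megakaryocytes, had a loop of 525 kb with identical anchors in both replicates, 32400001 to 32424999 and 32925001 to 32949999 on chromosome 9.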

How the data were processed

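Hi-C of HPC5 cells was deposited as loop and domain lists, 1 set per replicate. Per the submitters' processing notes, HiC-Pro 2.11.1 was used with mm10. Which programs called loops and domains is not given in the sources used here. Per the files, which have no header, the authors' deposited values are genomic positions, a whole number n, a value qBL and, for domains, a rank and a score, which were not used. Loop positions count from 1, and domain starts were moved by 1 base.

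Genes came from RefSeq (GRCm38.p6), leaving out scaffold entries. Anchor widths were 5, 10 or 25 kb. The 10 genes and the wider list were chosen with earlier results of these data known. Named genes were the 10, genes at the anchors opposite them, and wider-list genes with an end in an anchor of a loop found in both replicates, of which 1 is not reported here. No test across genes was made, since the genes were selected on these loops. Counts and medians stand beside those of all genes. Motifs were searched in the 250 bases before each start. Scripts (Python 3.11.15, pandas 2.3.3) were tested on simulated data, where loops planted at 200 gene ends were all recovered. Alternatives were the high list, each replicate alone, other distances and other partner rules. The depth is unknown.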

Additional observations from a re-analysis of the deposited data

How the results depend on the processing

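Of 45 alternatives to the 8 counts, 24 stayed within 1.5 times the main count and 21 did not. Among the loops of the members and those at gene ends of the wider list, the high setting left out every loop with 25 kb anchors. It kept every other one, so its lower counts reflect anchor width. The count of members with an end in an anchor, 3, was 1 with the high setting, 1 to 3 with a replicate left out, and 5 with ends up to 10 kb from the anchor. The count with an anchor on the gene, 4, was 2 with the high setting and 2 to 3 with a replicate left out. The count within 25 kb, 7, was 4 at 0 kb, 4 with partner loops only, and 4 to 7 with a replicate left out. The 3 members under a span stayed at 2 to 3.

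The loops within 25 kb of a member, 13, were 8 with the high setting, 6 at 0 kb, 7 with partner loops only, and 4 to 9 with a replicate left out. Of them 7 had a partner, but 0 did under the high setting or with identical anchors required. All replicate 1 member loops had 25 kb anchors and so none was in the high list, which leaves nothing to match there.

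For the wider list, the 30 genes with an end in an anchor were 14 with the high setting, 51 with ends within 10 kb, 10 with partner loops only, and 10 to 26 with a replicate left out. Its 67 genes within 25 kb were 40 at 0 kb, 22 with partner loops only, and 28 to 65 with a replicate left out. Without replicate 2 the lists shrink to 1276 loops and hold no 5 kb anchors. How far either bears on the fall of these counts was not tested. No paired analysis was possible because there is 1 group. The depth behind the lists is unknown, so a loop listed in replicate 2 alone cannot be told apart from one missed in replicate 1.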

Other observations

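Some further genes of these lineages, named after their values were seen, sat near loops or in domains. The beta globin genes Hbb-bt, Hbb-bs, Hbb-bh1 and Hbb-y lay under a replicate 2 loop of 160 kb that joined 103710001 to 103719999 to 103870001 to 103879999 on chromosome 7, and under a replicate 1 loop of 475 kb. These loops had no partner. The alpha globin genes Hba-x, Hba-a1 and Hba-a2 shared the anchor 32275001 to 32299999 of a replicate 2 loop of 100 kb on chromosome 11, and had none in replicate 1. Gata1, the erythroid and megakaryocytic transcription factor gene on chromosome X, lay under a loop of 100 kb in both replicates, and no anchor touched it. Pf4 and Ppbp, neighbouring platelet chemokine genes on chromosome 5, lay within 10 kb of anchors in both replicates and under loops of 200 kb in replicate 1 and 210 kb in replicate 2.

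Replicate 2 domains touched 8 of the 102 other lineage genes (7.84%, 95% Wilson interval 4.03 to 14.7%), against 5.51% of all genes. No domain touched the 10 genes, but with so few genes a count of 0 does not set them apart. Selp, the P-selectin gene, and F5, the coagulation factor V gene, lay in 1 domain of 375 kb on chromosome 1. Myb and Gata2, progenitor transcription factor genes, lay in domains of 330 and 350 kb on chromosomes 10 and 6. The Gata2 domain is also the nearest to Gp9. Car2, the carbonic anhydrase gene, lay in a domain of 355 kb on chromosome 3 and under loops of 320 kb in replicate 1 and 330 kb in replicate 2.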
